A study of Drosophila melanogaster with 8 samples.

Results

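The basement membrane proteins and integrins described here are 9 genes: Cg25C, vkg, trol, LanA, LanB1, LanB2, mys, mew and if. They were taken by symbol from a table of 15182 fly genes, and all 9 were listed and passed the filter on low values. The RNA came from Drosophila melanogaster embryos at early stage 14 that carried E10::EGFP, a reporter transgene in which E10, known as an enhancer of ovo (shavenbaby), drives EGFP. In each of 4 independent sorts, EGFP-positive cells formed the group called GFP-positive here, with 1 library per sort. The second group, called all cells, was 50000 cells of the parent scatter gate of the same sort, so that it holds EGFP-positive cells too and carries the same transgene; the series' design text calls these cells GFP-negative. The embryos of both groups were collected for 1 h and aged for about 11 h at 25 °C, and 5 ng of RNA per sample was amplified. The flies were reared in population cages, so that a library pools the cells of many embryos.

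A basement membrane is the sheet of extracellular matrix on which an epithelium rests. Collagen IV and laminin each assemble from chains into a trimer and then into a network, and perlecan, a large proteoglycan, and nidogen join these networks. In the Drosophila embryo blood cells (hemocytes) and the fat body are known as major sources of collagen IV. Integrins are receptors of 1 alpha and 1 beta chain that bind this matrix from the basal side of cells. The alpha chain encoded by mew is known as a laminin receptor of the epidermis and gut, and that encoded by if as a receptor of muscle and other mesoderm for ligands such as tiggrin. The beta chain encoded by mys pairs with both.

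The libraries' labels were checked first. All 8 epidermal markers were higher in GFP-positive cells, ovo, named as the gene of the reporter's enhancer, among them at 219 to 319.9 FPKM against 31.7 to 56.0 FPKM. FPKM, fragments per kilobase of transcript scaled to the library's mapped fragments, is a level per length that allows an approximate comparison between genes. Gene-specific biases of amplification and length were not measured. All 4 tested fat body markers and 10 of 12 somatic muscle markers were lower. By an estimate from the steps between low values, a single fragment per kilobase gave 0.113 to 0.178 FPKM in the GFP-positive group and 0.0884 to 0.106 FPKM in the second group, so that the GFP-positive libraries were the shallower. A floor of 3 fragments on a 1 kb transcript lay between 0.265 and 0.534 FPKM, counting error only, and all 9 genes stood far above it. GFP-positive library 2, that of sort 2, stood apart from the others of its group in collagen IV, as described below. The main values that rest on it are also given without it.

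The order of the 9 genes by level was not the same in the 2 groups. In all cells LanA was the highest at 495 ± 74.0 FPKM (SD, n = 4), followed by LanB1 at 279 ± 35.1, LanB2 at 216 ± 27.5, mys at 134 ± 8.19 and Cg25C at 127 ± 30.7. Lower levels were those of vkg at 52.5 ± 12.7 FPKM, trol at 26.9 ± 4.64, if at 26.7 ± 2.72 and mew at 19.9 ± 2.62 (SD, n = 4 each). Among neighbours in this order, the ranges of mys and Cg25C, of trol and if and, narrowly, of LanB1 and LanB2 overlapped, and the others did not. In GFP-positive cells LanA again led at 384 ± 68.6 FPKM, and Cg25C came next at 234 ± 166 FPKM (SD, n = 4 each), with library 2 at 482 FPKM. Without that library LanB1 came next at 189 ± 7.18, then Cg25C at 152 ± 15.0 and LanB2 at 137 ± 8.10 FPKM (SD, n = 3 each). Cg25C then overlapped LanB2 but not LanB1. Over all 4 libraries LanB1, LanB2, mys, vkg and trol followed Cg25C, each overlapping its neighbours. Without library 2 the ranges of LanB1 and LanB2, of mys and vkg, and of vkg and trol did not overlap. At the lower end, below the range of trol, mew, at 15.5 ± 2.94 FPKM, stood above if, at 12.2 ± 1.01 FPKM (SD, n = 4 each), with overlapping ranges.

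**Figure D1:**
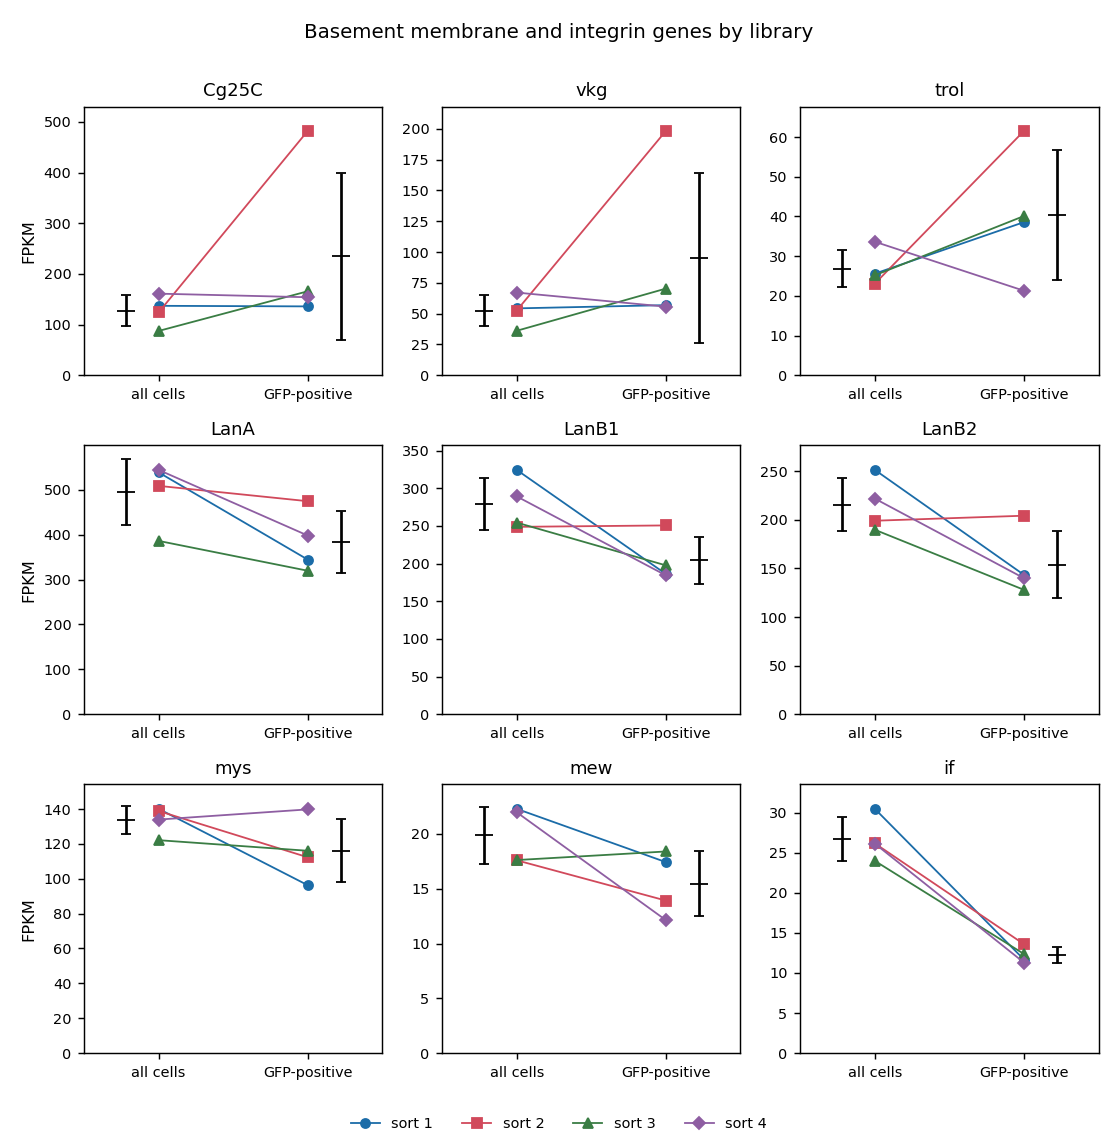
FPKM of the 9 genes (vertical axis, from 0) in the all-cell and GFP-positive library of each sort, joined by a line; bars beside the points are the mean ± SD of 4 libraries. The GFP-positive levels of if lie below all of its all-cell levels, and sort 2 stands out for Cg25C and vkg at 482 and 198 FPKM.

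Across the 9 genes, 3 were called lower in GFP-positive cells, if, LanB1 and LanB2, and 0 were called higher by limma at an adjusted p of 0.05. At an unadjusted p of 0.05 the counts were 4 lower and 0 higher. The background over the 10943 genes in the test was 50.2% called, 38.7% lower and 11.6% higher, so that the share of the 9 called lower, 33.3%, was near it. The median log2 fold change of the 9 genes was -0.35, and that of all genes was -0.47. Because that median depends on how libraries are scaled, each change is also given relative to it. With TMM-like scaling, which brings the median of all genes to -0.02, 21% of genes were called higher and 18.8% lower, so that 52.8% of calls were higher against 23.0% as deposited. Scaled by the summed spike-in RNA (ERCC), the median was -1.26 and 5.13% of calls were higher. In RNA from many cells, fewer cells of a type and less RNA per cell cannot be told apart.

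The integrin subunits come first. inflated (if, CG9623, chromosome X, 16646222 to 16677467 on build dm3) encodes the alpha chain known from muscle. Its levels in sorts 1 to 4 were 11.7, 13.6, 12.4 and 11.3 FPKM in GFP-positive cells and 30.5, 26.2, 24.0 and 26.1 FPKM in all cells. The groups did not overlap, and if was lower in GFP-positive cells in 4 of 4 sorts; over all genes tested, 34.8% had groups that did not overlap in this direction. The mean level was 2.18-fold lower, a log2 fold change of -1.06 ± 0.16 (SE; adjusted p = 2.8e-04 by limma). Relative to the median of all genes the value was -0.60. It was the only one of the 9 genes called in the same direction under each of the 22 alternatives run, with log2 fold changes from -1.95 to -0.54 and adjusted p from 2.4e-04 to 0.0391 by limma. Of 12 somatic muscle markers, which stand for the tissue the gene is best known from, 10 fell and 0 rose (0 at an unadjusted p of 0.05 by limma). Their summed level was 463 to 771 FPKM in GFP-positive and 2225 to 3312 FPKM in all-cell libraries, with none at 0, and their part in the level of if was not tested. In the authors' deposited table the Cuffdiff q-value of if was 0.00602, 0.137, 0.0443 and 0.0170 in sorts 1 to 4. The share of all genes with a q-value under 0.05 in that table was 14.7%, 14.5%, 11.2% and 12% in these sorts.

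multiple edematous wings (mew, CG1771, chromosome X, 13108442 to 13152523), the alpha chain known as a laminin receptor, stood at 17.4, 13.9, 18.4 and 12.1 FPKM in GFP-positive cells. In all cells the levels were 22.3, 17.6, 17.6 and 22.0 FPKM, so that the groups overlapped. mew was lower in 3 of 4 sorts but was not called, at a log2 fold change of -0.35 ± 0.19 (SE; adjusted p = 0.137 by limma). Relative to the median of all genes it lay 0.12 higher, and it stood at 0.18 with TMM-like scaling. The locus of mew overlaps those of CG15742 and CG32639, and fragments in the overlap could belong to either gene.

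myospheroid (mys, CG1560, chromosome X, 7955680 to 7964270), the beta chain, varied little in all cells, at 140.1, 139, 122 and 134 FPKM. In GFP-positive cells it stood at 96.3, 112, 116 and 139.8 FPKM, lower in sorts 1 to 3 and slightly higher in sort 4. It was not called, at a log2 fold change of -0.21 ± 0.13 (SE; adjusted p = 0.21 by limma), which is 0.25 above the median of all genes, and it stood at 0.34 with TMM-like scaling.

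A ratio of 2 genes within a library hardly depends on how libraries are scaled, and 8 such ratios were compared, tested on the log2 scale with 1 FPKM added to both genes. mew stood to if in a ratio of 1.49, 1.02, 1.49 and 1.07 in the GFP-positive libraries of sorts 1 to 4. In the all-cell libraries the ratio was 0.732, 0.673, 0.735 and 0.841. Thus mew had the higher FPKM of these 2 genes in each GFP-positive library, narrowly so in sorts 2 and 4, and the lower in each all-cell library. The log2 ratio differed by 0.71 between the groups, was higher in 4 of 4 sorts and had an exact two-sided permutation p of 0.0286. That is the smallest p 4 against 4 libraries allow, and adjusted over the 8 ratios it was 0.0762. The ratio of mys to if moved the same way, from 5.03 ± 0.30 in all cells to 9.57 ± 1.95 in GFP-positive cells (SD, n = 4 each), a log2 difference of 0.85 with the same exact p of 0.0286 and adjusted p of 0.0762. The ratio of mys to mew was 6.80 ± 0.81 against 7.85 ± 2.66 (SD, n = 4 each); its log2 difference was 0.14, with sort differences from -0.20 to 0.87 and an exact permutation p of 0.6. No adjusted value for a ratio passed 0.05.

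**Figure D2:**
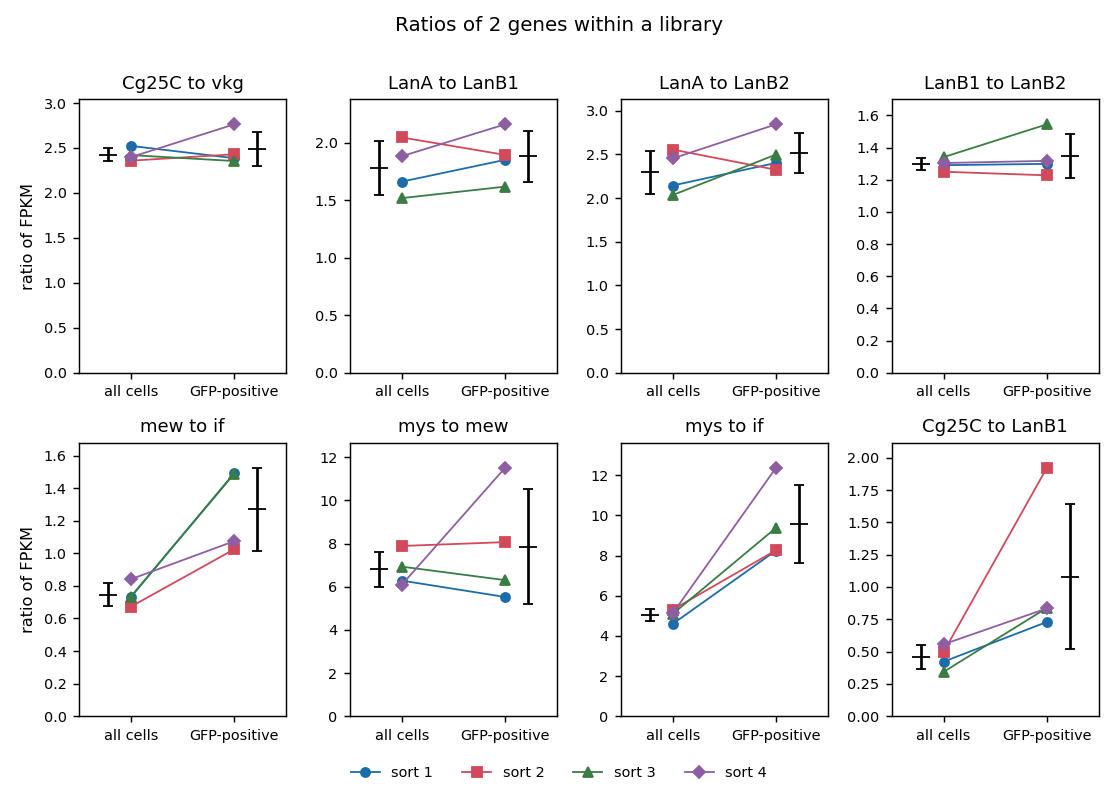
Ratio of the FPKM of 2 genes (vertical axis, from 0) in the all-cell and GFP-positive library of each sort for 8 pairs of genes; bars are the mean ± SD of 4 libraries. The ratios of mew to if, mys to if and Cg25C to LanB1 do not overlap between the groups, while the other 5 do.

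The remaining integrin subunits differed from one another. scab (scb), another alpha chain, stood at 54.6 ± 18.8 FPKM in GFP-positive and 25.9 ± 1.83 FPKM in all cells (SD, n = 4 each). It rose, in 4 of 4 sorts, by 0.98 ± 0.24 log2 units (SE; adjusted p = 0.00533 by limma), a value that was 1.52 with TMM-like scaling and 0.06 with ERCC scaling. The beta chain betaInt-nu, known from the midgut, was at 1.47 ± 0.62 against 6.37 ± 2.28 FPKM (SD, n = 4 each), a log2 fold change of -1.56 ± 0.30 (SE; adjusted p = 0.00148 by limma). alphaPS4, at 5.60 to 9.30 against 3.07 to 5.73 FPKM, was not called (log2 fold change 0.61, adjusted p = 0.0653 by limma) although higher in 4 of 4 sorts, and alphaPS5 stayed below the filter at 0 to 1.14 FPKM. The last 2 were picked for naming with their values in view. Of these 4 subunits 3 were tested, 1 rose and 1 fell, with a median log2 fold change of 0.61 and a mean of 0.01. Of 8 amnioserosa markers 7 rose and 1 fell, at 277 to 436 FPKM summed in GFP-positive and 158 to 181 FPKM in all-cell libraries; their part in these values was not tested.

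Genes of the complex that links integrins to actin were called lower or not called. Of 15 such genes, 7 fell and 0 rose by limma (1 rose at an unadjusted p of 0.05), with a median log2 fold change of -0.33, or 0.14 above all genes. wech, known to link talin with integrin-linked kinase, stood at 21.5 ± 9.07 against 67.9 ± 31.1 FPKM and rhea, which encodes talin, at 54.9 ± 8.99 against 120 ± 17.5 FPKM (SD, n = 4 each). Their log2 fold changes were -1.61 and -1.12 (adjusted p = 0.00204 and 2.4e-04 by limma). Fak56D, focal adhesion kinase, and Ilk, integrin-linked kinase, fell, with log2 fold changes of -0.58 and -0.54 (adjusted p = 0.00842 and 0.0366 by limma). When libraries were scaled by TMM-like factors, 4 of the 15 rose and 0 fell; wech and rhea then stood at -1.07 and -0.57, and Fak56D and Ilk at -0.04 and -0.0045. With ERCC scaling 9 fell and 0 rose. Over all 10943 genes tested, 21% were called higher and 18.8% lower with TMM-like scaling. With ERCC scaling 309 of them were called higher and 5714 lower.

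The genes of 3 laminin chains had the highest FPKM of the 9 genes in all cells. LanA (CG10236, chromosome 3L, 6196931 to 6211084), an alpha chain, stood at 345, 475, 319.8 and 398 FPKM in GFP-positive cells of sorts 1 to 4. In all cells its levels were 539, 509, 386 and 545 FPKM. LanA was lower in 4 of 4 sorts, but the groups overlapped, since all-cell library 3 lay below GFP-positive libraries 2 and 4. LanA was not called, at -0.37 ± 0.16 on the log2 scale (SE; adjusted p = 0.0828 by limma). It was called with the sort as a block (adjusted p = 0.0263), without GFP-positive library 2 (0.0385) and without all-cell library 3 (0.0251).

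LanB1 (CG7123, chromosome 2L, 7811440 to 7820771), the beta chain, stood at 186, 251, 198 and 184 FPKM in GFP-positive cells and at 324, 249, 254 and 289 FPKM in all cells. It was lower in sorts 1, 3 and 4 and level in sort 2. It was called lower, at -0.45 ± 0.14 on the log2 scale (SE; adjusted p = 0.0218 by limma). LanB2 (CG3322, chromosome 3L, 9608019 to 9617080), the gamma chain, stood at 143, 204, 128 and 140.0 FPKM against 251, 199, 189.8 and 222 FPKM. It was lower in the same 3 sorts and was called, at -0.50 ± 0.16 on the log2 scale (SE; adjusted p = 0.0246 by limma). For all 3 chains GFP-positive library 2 was the highest of its group.

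The calls of LanB1 and LanB2 were close to the threshold. LanB1 was not called without GFP-positive library 1 or 4 or all-cell library 1 or 4, with adjusted p from 0.0533 to 0.0665 by limma. LanB2 was not called without GFP-positive library 1, 3 or 4 or all-cell library 1 or 4, with adjusted p from 0.0542 to 0.0715, and with no filter on low values it was 0.0524. Without sort 1 and without sort 4 the adjusted p by limma was 0.135 and 0.114 for LanB1 and 0.128 and 0.109 for LanB2. Without sort 3 it was 0.0459 for LanB1 and 0.0558 for LanB2, and both stayed called without sort 2. The chains' fold changes lay 0.10, 0.02 and -0.03 from the median of all genes, for LanA, LanB1 and LanB2. With TMM-like scaling their signs turned, to 0.19, 0.11 and 0.055, and none of these was called.

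The ratios between laminin chains overlapped between the groups. LanB1 stood to LanB2 in a ratio of 1.23 to 1.54 in GFP-positive and 1.25 to 1.34 in all-cell libraries, and LanA to LanB1 as 1.88 ± 0.22 and 1.78 ± 0.23 (SD, n = 4 each). LanA to LanB2 was 2.52 ± 0.23 against 2.30 ± 0.25 (SD, n = 4 each). The sort differences of the log2 ratios ran from -0.03 to 0.20 for LanB1 to LanB2, from -0.11 to 0.20 for LanA to LanB1 and from -0.14 to 0.29 for LanA to LanB2. The exact permutation p-values were 0.714, 0.543 and 0.257, and 0.714, 0.714 and 0.514 when adjusted over the 8 ratios.

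Collagen IV was set apart by 1 library. Cg25C (CG4145, chromosome 2L, 5029615 to 5037114) encodes the alpha 1 chain of collagen IV and vkg, viking (CG16858, chromosome 2L, 5012144 to 5027412), the alpha 2 chain. The 2 loci are neighbours, 2202 bases apart. Cg25C stood at 136, 482, 166 and 154 FPKM in the GFP-positive libraries of sorts 1 to 4 and at 137, 124, 87.3 and 161 FPKM in all cells. vkg stood at 56.9, 198, 70.3 and 55.7 FPKM against 54.3, 52.5, 36.1 and 67.1 FPKM. In sort 2 both chains were higher in GFP-positive cells, 3.89-fold and 3.78-fold, and in sort 3 they were 1.90-fold and 1.95-fold higher. In sorts 1 and 4 they ranged from 0.830-fold to 1.05-fold.

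Neither chain was called. Cg25C stood at 0.70 ± 0.35 on the log2 scale (SE; adjusted p = 0.121 by limma) and vkg at 0.66 ± 0.36 (SE; adjusted p = 0.148 by limma), or 1.16 and 1.13 above the median of all genes. Without GFP-positive library 2 the log2 fold changes were 0.28 and 0.24 (adjusted p = 0.282 and 0.383 by limma). With TMM-like scaling both were called higher, at 1.25 and 1.21 (adjusted p = 0.0248 and 0.0328 by limma), and with ERCC scaling both stood below 0, at -0.24 and -0.27. In the authors' deposited table the Cuffdiff q-value of Cg25C was 0.0147 in sort 2 and 0.940 to 1 in the others. For vkg it was 0.0927 in sort 2. That table lists a log2 fold change of 0 for Cg25C in sort 3, although the FPKM columns differ 1.90-fold.

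The 2 chains varied together. Cg25C stood to vkg as 2.48 ± 0.19 in GFP-positive and 2.43 ± 0.07 in all-cell libraries (SD, n = 4 each), and as 2.43 in GFP-positive library 2 itself. The log2 ratio differed by 0.04, with sort differences from -0.08 to 0.20 (exact permutation p = 0.686, adjusted over the 8 ratios 0.714). Over the 8 libraries vkg had the highest Pearson's r with Cg25C of all genes tested, 0.994, on a scale of log2(FPKM + 1). CG14635 (r = 0.971) and CG31777 (r = 0.966) followed. Over the 7 libraries left without GFP-positive library 2, r with Cg25C was 0.965 for vkg, second of all genes tested. It was 0.817 for CG14635 and 0.824 for CG31777, which then stood at ranks 127 and 110. The 8 libraries share sorts and their normalization. Set against laminin, Cg25C to LanB1 went from 0.455 ± 0.09 in all cells to 1.08 ± 0.56 in GFP-positive cells (SD, n = 4 each), with a log2 difference of 1.15. The 2 groups did not overlap in this ratio, at 0.729 to 1.92 against 0.343 to 0.556. It was higher in 4 of 4 sorts (exact permutation p = 0.0286, adjusted 0.0762), and without GFP-positive library 2 the log2 difference was 0.83.

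Several genes of collagen IV processing and basement membrane assembly were also highest in GFP-positive library 2. Papilin (Ppn), a matrix glycoprotein, stood at 324, 875, 372 and 368 FPKM in GFP-positive cells of sorts 1 to 4. BM-40-SPARC, a collagen-binding matrix protein, stood at 40.8, 108, 47.5 and 33.2 FPKM and Pxn, peroxidasin, which crosslinks collagen IV, at 38.3, 87.6, 37.6 and 41.0 FPKM. Relative to the mean of the other 3 GFP-positive libraries, library 2 was 3.18-fold higher for Cg25C, 3.25-fold for vkg, 2.68-fold for BM-40-SPARC, 2.47-fold for Ppn and 2.25-fold for Pxn. Of 10939 genes with such a value, 3.34% were at least 2-fold higher in that library, and the median was 0.842. Tango1, which acts in collagen export, and PH4alphaEFB, a prolyl hydroxylase, were at 1.12 and 0.940 by the same measure. These names, Cg25C and vkg apart, were picked with their values in view.

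Over all libraries 1 of these 8 genes rose and 1 fell, with a median log2 fold change of 0.22, or 0.68 above all genes. The one that rose was CG43154, also called rudhira, by 0.60 ± 0.16 log2 units (SE; adjusted p = 0.00849 by limma). The one that fell was Plod, lysyl hydroxylase, at -0.85 ± 0.21 (SE; adjusted p = 0.00612 by limma). Under TMM-like scaling 3 were higher and 0 lower, and Plod stood at -0.30, not called, while under ERCC scaling CG43154 stood at -0.33.

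**Figure D3:**
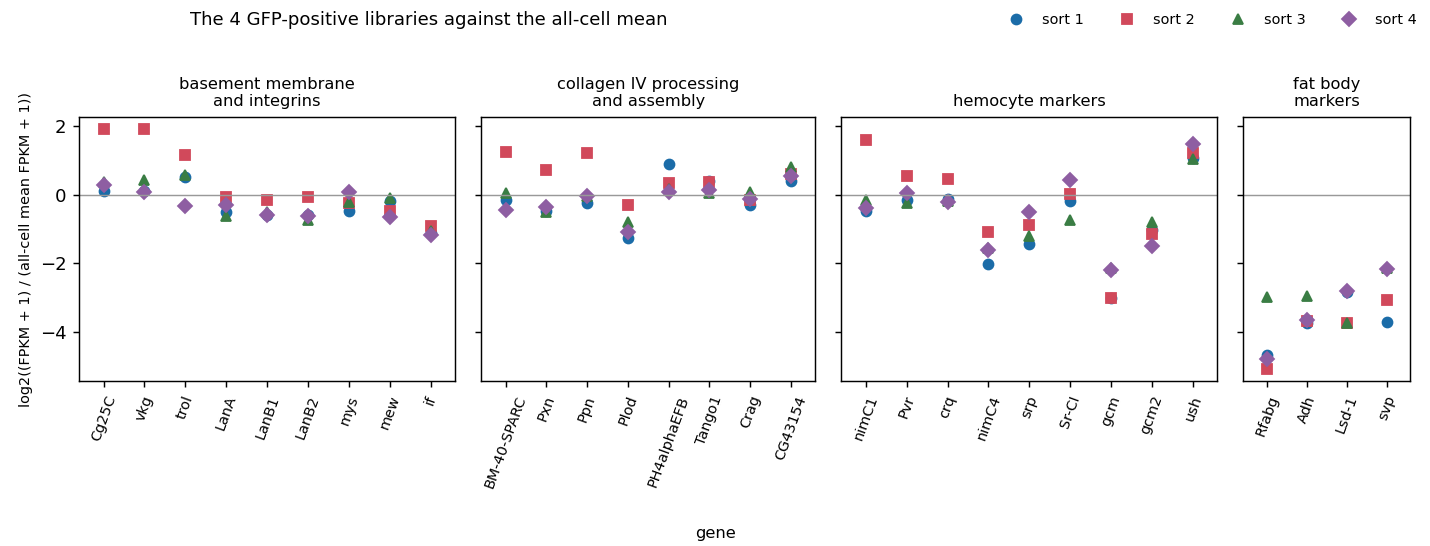
Level of each gene in the 4 GFP-positive libraries relative to the mean of the all-cell libraries (vertical axis, log2 of FPKM + 1), for the 9 genes and 3 lists. Sort 2 (squares) is the highest for Cg25C, vkg, trol, LanA, LanB1, LanB2, if, BM-40-SPARC, Pxn, Ppn, Plod, nimC1, Pvr, crq and nimC4. Other sorts are the highest for the remaining genes, among them the hemocyte markers srp, Sr-CI, gcm, gcm2 and ush. Genes below the filter, such as Hml, eater and He, are not shown. Rfabg of the fat body is lowest there.

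Markers of the cells known to make collagen IV are given beside these values. Of 12 hemocyte markers 9 were tested, with a list median of -0.08. Of these 1 rose (ush, which the amnioserosa also expresses) and 4 fell, srp, gcm2, gcm and nimC4. The last 2 stood at log2 fold changes of -2.56 and -1.57, and gcm is also in the list of glial markers. The summed FPKM of the 12 was 251, 347, 249 and 337 in the GFP-positive libraries of sorts 1 to 4 and 337 to 395 in all cells. ush alone stood at 81.3, 89.2, 78.9 and 108 FPKM in these GFP-positive libraries and at 33.1 to 40.4 FPKM in all cells. All 12 were also set, in GFP-positive library 2, against the mean of the other 3 of its group, with no test. nimC1, a phagocytosis receptor of hemocytes, stood at 5.74 FPKM in GFP-positive library 2 and at 0.618 to 1.01 FPKM in the other 3, a ratio of 7.41. He was at 1.64 FPKM in library 2 and listed at 0 in the other 3. The ratio was 1.60 for Pvr, 1.56 for nimC4 and 1.55 for crq, and close to 1 for srp (1.09), Sr-CI (1.08), ush (0.996) and gcm2 (0.934). It was lower for gcm (0.596), eater (0.476) and Hml (0.338), the last 2 under 1 FPKM in library 2. All 4 tested fat body markers of 6 listed fell, with log2 fold changes of -4.34 for Rfabg, -3.38 for Adh and -3.21 for Lsd-1. Their sum was 31.9 FPKM in library 2, the lowest of the 8, against 37.4 to 84.7 in the other GFP-positive libraries and 428 to 906 in all cells. The part of hemocytes in the collagen IV values of library 2 was not tested.

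Perlecan and the remaining matrix ligands follow. trol (CG33950, chromosome X, 2364493 to 2439423), which encodes perlecan, stood at 38.6, 61.6, 40.1 and 21.3 FPKM in GFP-positive cells and at 25.6, 23.1, 25.2 and 33.6 FPKM in all cells. It was higher in sorts 1 to 3, by 1.51-fold, 2.67-fold and 1.59-fold, and lower in sort 4, at 0.633-fold. It was not called, at 0.49 ± 0.27 on the log2 scale (SE; adjusted p = 0.151 by limma), or 0.96 above the median of all genes. Without GFP-positive library 4 it was called higher, at 0.76 (adjusted p = 0.0113 by limma), and without GFP-positive library 2 it stood at 0.26 (adjusted p = 0.406 by limma). It was also called higher with TMM-like scaling, at 1.03, and with quantile normalization, at 0.74 (adjusted p = 0.0237 and 0.0350 by limma), and stood at -0.43 with ERCC scaling. In the authors' deposited table the Cuffdiff q-values of trol were 0.0202, 6.5e-06, 0.0361 and 0.0273 in sorts 1 to 4, with log2 fold changes of 0.59, 1.42, 0.67 and -0.66. The locus overlaps that of CR43516, which was listed at 0 in all 8 libraries.

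Of 7 other matrix ligands 1 rose and 3 fell, with a median log2 fold change of -0.67, or 0.20 below all genes. NetB, a netrin with laminin-like domains, fell from 47.2 ± 10.5 to 12.7 ± 3.74 FPKM, and Ndg, nidogen, from 32.0 ± 1.72 to 12.6 ± 1.92 FPKM (SD, n = 4 each). On the log2 scale the changes were -1.82 ± 0.23 and -1.29 ± 0.16 (SE; adjusted p = 1.0e-04 and 9.3e-05 by limma), and both stayed called with TMM-like scaling. NetA fell as well, at -0.67, a value that was -0.14 with TMM-like scaling. Tsp, thrombospondin, an integrin ligand of tendon cells, rose from 38.7 ± 11.9 to 61.9 ± 2.86 FPKM (SD, n = 4 each), by 0.72 ± 0.20 log2 units (SE; adjusted p = 0.0127 by limma), but stood at -0.21 with ERCC scaling. Tig, tiggrin, the ligand known for the if chain and picked with its values in view, stood at 28.8, 81.9, 36.8 and 30.3 FPKM in GFP-positive cells and at 49.6 to 82.3 FPKM in all cells, and was not called (adjusted p = 0.0729 by limma).

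Of 5 other receptors for basement membrane 2 fell, Lar and dlp, with log2 fold changes of -1.05 and -0.92, and 0 rose by limma (also 0 at an unadjusted p of 0.05). Lar is a receptor tyrosine phosphatase and dlp a glypican, and neither was called with TMM-like scaling (adjusted p = 0.143 and 0.191 by limma). Of 6 matrix proteases and their inhibitors 1 rose and 0 fell by limma (0 fell at an unadjusted p of 0.05). It was stl, a secreted metalloprotease, at 5.79 ± 1.57 against 1.47 ± 1.01 FPKM (SD, n = 4 each), or 1.52 ± 0.34 log2 units (SE; adjusted p = 0.00344 by limma). The list's median log2 fold change was -0.05 and its mean 0.18. Over these 6 lists 44 of 45 genes were tested, 4 rose and 14 fell, beside a background of 11.6% and 38.7%.

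**Figure D4:**
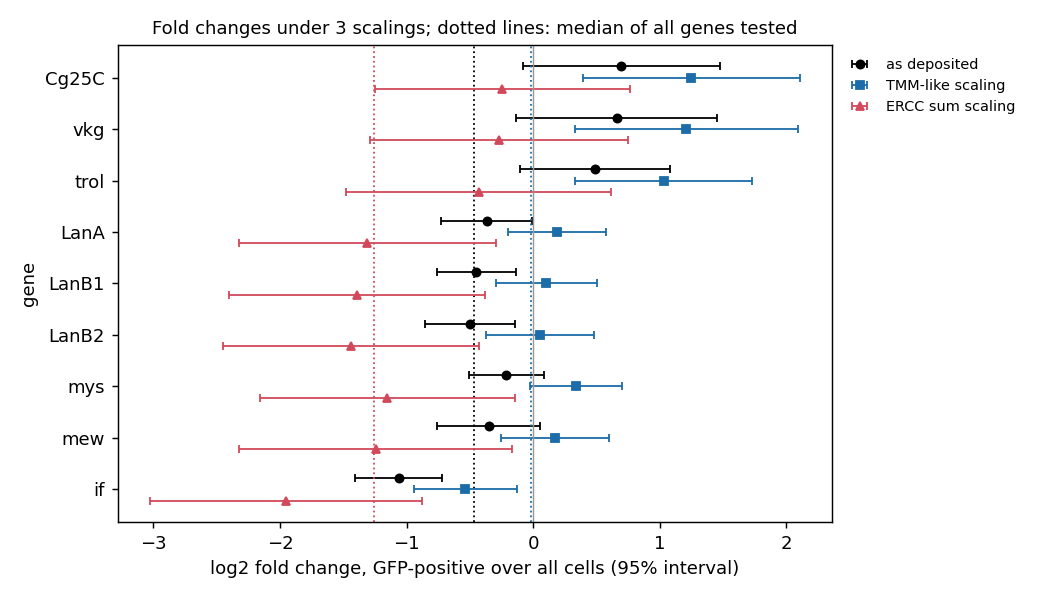
Log2 fold change of GFP-positive over all cells with its 95% interval (horizontal axis) for the 9 genes under 3 scalings; dotted lines are the median of all genes tested under each. if lies below 0 and below that median under all 3, at -1.06, -0.54 and -1.95. Cg25C, vkg, trol, mys and mew lie above the median under all 3, mew only narrowly with ERCC scaling (-1.245 against -1.256).

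Isoforms were estimated by the authors for each gene, 33 in all, of which 19 passed the filter and 14 did not. Of the 19, 1 was called higher and 3 lower; of the 16198 isoforms in that test 36.4% were called, 9.28% higher and 27.2% lower. LanA, LanB2, mys and vkg have 1 listed isoform each, and LanB2-RA was among the 3 called lower (adjusted p = 0.0456 by limma). Both abundant isoforms of if were lower: if-RC stood at 8.52, 4.34, 6.73 and 8.57 FPKM against 17.0, 19.5, 10.2 and 10.6 FPKM, and if-RF at 2.73 to 6.26 against 6.13 to 13.5 FPKM. Their log2 fold changes were -0.92 and -1.17 (adjusted p = 0.0350 and 0.0232 by limma). The groups of if-RC did not overlap and those of if-RF did. Over all genes tested, 34.8% had groups that did not overlap in this direction and 10.2% in the other. That share was not counted over isoforms, so non-overlap of an isoform is given as a description only. Their shares varied widely between libraries, that of if-RC from 32.0% to 75.9% in GFP-positive and from 40.7% to 74.5% in all-cell libraries.

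mew was carried mostly by mew-RB, 91.3 ± 5.78% of the summed FPKM in GFP-positive and 91.4 ± 4.32% in all-cell libraries (SD, n = 4 each). Its levels of 10.3 to 16.6 FPKM and 16.7 to 19.5 FPKM did not overlap between the groups, an outcome seen in 34.8% of genes tested. It was not called (log2 fold change -0.35, adjusted p = 0.197 by limma). For Cg25C the isoform RC held 69.6 ± 15.3% and 69.0 ± 10.4% (SD, n = 4 each). In GFP-positive library 2 it stood at 382 FPKM, so that the high level there was mainly that of the main isoform.

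trol has 18 listed isoforms with overlapping loci, 4 of them at 0 in all libraries and 6 past the filter, and their FPKM rest on how shared fragments were assigned. trol-RJ and trol-RL held the largest shares in all cells, 32.1 ± 7.06% and 27.6 ± 6.59% (SD, n = 4 each). In GFP-positive library 4, where trol was low, trol-RJ held 8.95% and stood at 1.90 FPKM, against 28.2% to 36.6% and 10.9 to 22.5 FPKM in the other GFP-positive libraries. A minor isoform, trol-RW, was the one called higher among all 19. It stood at 3.56, 3.36, 1.24 and 1.74 FPKM in GFP-positive cells and at 0.331, 0.481, 0.348 and 0.574 FPKM in all cells, without overlap. Of genes tested, 10.2% had groups that did not overlap in this direction. It rose by 1.22 ± 0.32 log2 units (SE; adjusted p = 0.0153 by limma), and its share was 3.08% to 9.22% against 1.29% to 2.09%. Of those below the filter and not tested, trol-RU held 0.685% to 3.35% in GFP-positive and 0 to 0.346% in all-cell libraries. trol-RAD held 2.89% to 7.16% against 0.621% to 2.82%, narrowly without overlap. trol-RD, whose listed locus is the shortest, went the other way in share, at 0.967% to 2.16% against 2.65% to 4.29%.

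**Figure D5:**
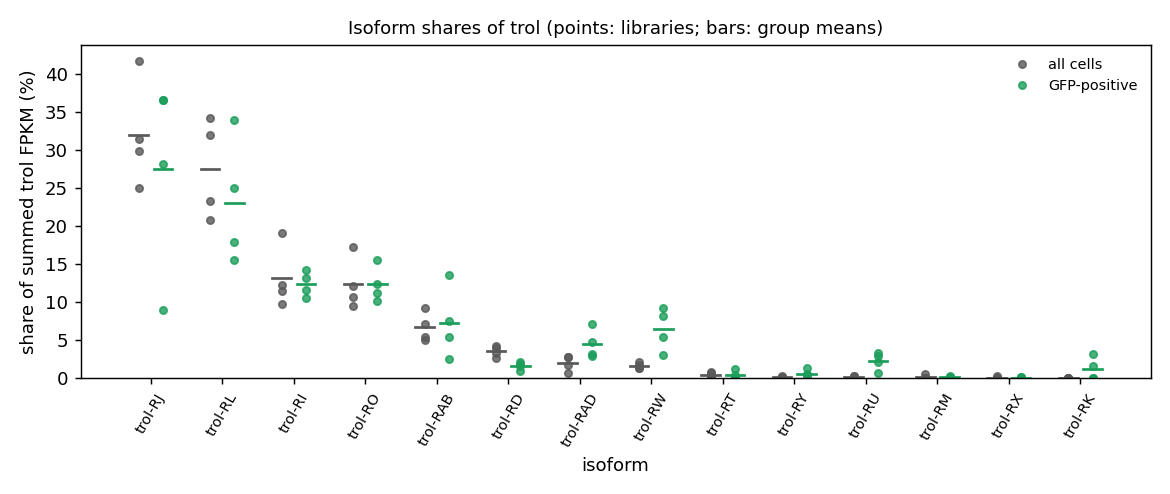
Share of the summed trol FPKM (vertical axis, percent) held by each of the 14 isoforms that were above 0 in at least 1 library; points are libraries and bars the means of 4. trol-RW, trol-RU and, narrowly, trol-RAD lie higher in all 4 GFP-positive libraries and trol-RD lower, while trol-RJ ranges from 8.95% to 36.6% among them.

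Genes most alike over the 8 libraries were also sought for LanA, mew and if, as a description with n = 8. For if they were CG1718, Rrp6 and CG5589 (r = 0.992, 0.991 and 0.991). For mew they were CG4433, CG4449 and Sin (r = 0.978, 0.977 and 0.971), and for LanA c12.1, CG30002 and alpha-Est8 (r = 0.983, 0.970 and 0.959). These values combine the difference between groups with the spread inside them. Taken as deviations from the group means, LanB1 and LanB2 correlated by 0.91, Cg25C and vkg by 0.99, and mys and mew by -0.45 over the 8 libraries. Without GFP-positive library 2 these were 0.80, 0.96 and -0.49 over 7 libraries, and r for the 9 genes most like if, mew and LanA lay between 0.961 and 0.995. Their ranks were then 1 to 7 for mew and 4 to 24 for if. For LanA they were 3, 86 and 149 for c12.1, CG30002 and alpha-Est8. alpha-Est8, at 0.393 and 0.223 FPKM in GFP-positive libraries 1 and 3, lay under their floors of 0.455 and 0.340 FPKM.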

How the data were processed

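RNA-seq of 8 libraries was analysed, 4 GFP-positive and 4 all-cell, paired by the sort number in the labels. The deposited values are FPKM per gene and per isoform, per the file headers, with 1 column per library; the table names say RPKM. Per the submitters' processing notes the authors worked on build dm3 with TopHat (1.4.0) and, for assembly and testing, Cufflinks and Cuffdiff (both 1.3.0). For parameters, gene annotation and strand setting: not given in the sources used here. In addition, the authors deposited Cuffdiff log2 fold changes and q-values for each sort's pair of libraries, per the file headers. Coordinates are on dm3, 1-based. No sequence is printed.

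Fly genes, or isoforms, with 1 FPKM or more in at least 4 of 8 libraries were tested with limma 3.58.1 (R 4.3.3) on log2(FPKM + 1), with a mean-variance trend, two-sided, adjusted by Benjamini and Hochberg over all features tested. The scale understates changes of low genes. Ratios were compared by exact permutation. The p-values of the main fit and of the ratios measure the spread between libraries within a group and leave out the pairing by sort. The FPKM of 1 fragment was estimated from the most common value of FPKM times length in loci of 1 isoform and at most 1 kb, a choice made after seeing the values. Same-sort libraries deviated together from the group means, r = 0.44, 0.10, 0.41 and 0.17; the sort entered as a block in an alternative fit. Others were the pseudocount, the filter, TMM-like, quantile and ERCC scaling, summed isoforms and leaving out libraries; leaving out sorts, 2 combinations with the block and correlations without GFP-positive library 2 were added after seeing the data. The genes and lists were chosen with earlier results of these data known. Of 105 listed genes, 91 matched by symbol and 14 through a RefSeq table (Release 6), used for names only. The genes named are the 9 with their isoforms, up to 4 called genes of each pathway list (3 of each marker list) by size of change, or the 2 of highest level in a list without calls, and the 3 genes most correlated with Cg25C, mew, if and LanA; others are marked as picked with their values in view. The marker lists not shown in the report were those of glia, with 4 of 5 lower and 1 higher, visceral and cardiac mesoderm, with 3 of 6 lower and 1 higher, and salivary gland and gut, with 5 of 5 lower.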

Additional observations from a re-analysis of the deposited data

Results flagged for a closer look

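In 9 of 62 groups of 4 libraries examined, 1 library lay far from the other 3, as measured by its gap to the nearest one over the whole range, above Dixon's 95% critical value for 4 samples. For independent, normally distributed values chance gives this in about 1 of 20 groups. The groups here share libraries and genes and hold unlogged FPKM, sums and ratios. The count of 9 can therefore not be set against that share. GFP-positive library 2 was the far one for Cg25C (gap 0.914), vkg (0.897), the ratio of Cg25C to LanB1 (0.857) and the summed genes of collagen IV processing and assembly (0.925), where it reached 1347 FPKM against 649 to 702. All-cell library 3 was the far one for the integrin adhesion complex (0.860, 732 against 657 to 668 FPKM) and for the other receptors for basement membrane (0.912, 612 against 482 to 494 FPKM). All-cell library 4 was high for glial markers (0.912, 163 against 131 to 134 FPKM) and for salivary gland and gut markers (0.834, 93.8 against 67.6 to 72.0 FPKM), and GFP-positive library 1 for epidermal markers (0.952, 2499 against 2055 to 2076 FPKM).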

How the results depend on the processing

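The direction of 8 of the 9 genes, all but if, changed under at least 1 scaling. With TMM-like scaling LanA, LanB1, LanB2, mys and mew turned positive, at 0.19, 0.11, 0.055, 0.34 and 0.18, with the same values when the replicate block was added, and with quantile normalization mew stood at 0.042. With ERCC scaling Cg25C, vkg and trol turned negative, at -0.24, -0.27 and -0.43. Of the 9 genes 3 were called, all lower. Counts of calls were 3 higher and 1 lower with TMM-like scaling, with or without the replicate block, 1 higher and 3 lower with quantile normalization, and 6, all lower, with ERCC scaling. Over the 10943 genes tested, 2299 were called higher and 2058 lower with TMM-like scaling. These counts were 2063 and 2517 with quantile normalization, and 309 and 5714 with ERCC scaling. The replicate block alone gave 4 of the 9 genes lower and 0 higher, LanA being the addition, and changed no other call of the 9. Leaving out 1 library at a time gave 1 to 4 calls in all, 0 to 1 higher and 1 to 4 lower. Without sort 1 there was 1 call, lower, and without sort 4 there were 1 higher and 1 lower. Isoform calls, 4 as reported, were 3 with the replicate block, 1 with TMM-like scaling, 2 with the replicate block added to it, 0 without sort 1 (limma; 3 at an unadjusted p of 0.05), 1 without sort 3 and 1 to 4 when leaving out single libraries. Over the 6 pathway lists 12 rose and 9 fell with quantile normalization, 13 rose and 3 fell with TMM-like scaling and 0 rose with ERCC scaling (0 at an unadjusted p of 0.05), against 4 and 14 as deposited and 5 and 15 with the replicate block. Leaving out 1 library gave log2 ratio differences of -0.014 to 0.061 for Cg25C to vkg, -0.018 to 0.092 for LanB1 to LanB2 and -0.058 to 0.28 for mys to mew, while the other 5 ratios kept their sign. The cause of these changes was not tested, beyond the scaling itself. Leaving out 1 library kept the exact p of mew to if and of mys to if at 0.0286, the smallest that 3 against 4 libraries allow. That of Cg25C to LanB1 was the same, except without all-cell library 3, where it was 0.0571. Within sorts the exact sign-flip test cannot go below 0.125, the p it gave for mew to if, mys to if and Cg25C to LanB1.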

Other observations

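LanB1-RB, a short isoform of LanB1, was seen mainly in sort 2, in both libraries: 32.3 FPKM in GFP-positive and 51.0 FPKM in all cells, or 12.9% and 20.5% of the summed LanB1 FPKM. In the other 6 libraries it stood at 0 to 7.33 FPKM. GFP-positive library 4, where trol was lowest, was also the lowest of its group for mp, the gene of the collagen Multiplexin, at 2.31 FPKM, while the remaining 3 ranged from 8.94 to 12.4 FPKM. Both were picked with their values in view.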
